A study of Mus musculus with 8 samples.

Results

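The unfolded protein response and endoplasmic reticulum (ER) secretion genes described here are 37 genes chosen by name, of 24421 genes with a row in the count table. They are 6 stress sensors and transcription factors, 11 chaperones and co-chaperones, 7 disulfide and proline isomerases, 3 genes of translocation and signal peptide cleavage, 7 genes of ER-associated degradation and 3 targets of ATF4. Their mRNA was measured by RNA sequencing in follicular regulatory T (TFR) cells, the Foxp3-expressing T cells that restrain antibody responses in B cell follicles. The cells came from mouse spleen, 36 days after 2 oral challenges with peanut and cholera toxin, and were sorted as CXCR5+ PD1+ cells carrying the Foxp3 YFP reporter after CD4+ T cell enrichment. The 4 libraries called Blimp1-flox came from mice carrying both a floxed allele of Blimp1 and Foxp3-cre, and 4 further libraries were WT. Foxp3-cre acts in all Foxp3-expressing cells and not in TFR cells alone. The labels do not give the Foxp3-cre status of WT mice, nor whether 1 or both copies of Blimp1 were floxed. Nothing says that each library was a mouse of its own, so p-values measure the spread between these libraries, which may be technical in part. The comparison addressed how Blimp1, a transcription factor encoded by Prdm1, shapes the transcriptome of TFR cells.

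When the ER fills with unfolded protein, 3 sensors in its membrane respond: IRE1, PERK and ATF6. IRE1 cuts an intron out of Xbp1 mRNA so that the active factor XBP1s is made, PERK slows translation while allowing ATF4 to be made, and ATF6 is cleaved to release a transcription factor. XBP1s and ATF6 raise chaperones, isomerases, the translocation machinery and ER-associated degradation (ERAD), which sends misfolded proteins to the proteasome, while ATF4 raises amino acid and redox genes and, through CHOP, genes linked to cell death. In plasma cells Blimp1 and XBP1 together drive this secretory programme. T cells have a smaller ER and secrete far less protein.

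Library totals were 16425538 to 27595939 counts in Blimp1-flox libraries and 22788722 to 26279365 counts in WT libraries. Prdm1 stood at 7.53 to 16.6 CPM (counts divided by the TMM-scaled size of their library) in Blimp1-flox libraries and at 31.8 to 71.0 CPM in WT libraries (edgeR quasi-likelihood adjusted p = 0.0203), with the floxed exons not given. Of 15 T and TFR cell markers, 14 had a row and all 14 were detected, with sums of 8509 to 10392 CPM in Blimp1-flox libraries and 8862 to 10360 CPM in WT libraries. Within this list Il2ra was called lower (log2 fold change -1.39 ± 0.23, edgeR adjusted p = 0.0311). It stood at 28.1 to 55.4 CPM in Blimp1-flox libraries and at 81.3 to 121 CPM in WT libraries. Foxp3 had a log2 fold change of -0.40 ± 0.13 and Pdcd1 of 0.30 ± 0.19, both with overlap (edgeR adjusted p = 0.176 and 0.457). No other gene of this list was called by edgeR. Some markers of other cells stood apart in single libraries or between groups. The 15 B cell markers summed to 217 to 293 CPM in Blimp1-flox libraries and to 261 to 949.5 CPM in WT libraries, the highest being WT replicate 4, where Cd79a was at 122 CPM. The plasma cell gene Jchain was at 62.6, 37.2, 7.19 and 81.4 CPM in Blimp1-flox libraries and at 13.6, 26.2, 21.0 and 18.4 CPM in WT libraries, while Tnfrsf17, a defining plasma cell receptor, was at 0 to 0.170 CPM over all 8 libraries. Of 10 plasma cell markers, 9 had a row and were detected, with sums of 313 to 420.2 CPM in Blimp1-flox libraries and 258 to 327 CPM in WT libraries. Among them Sdc1, the plasma cell surface marker CD138, was called higher (log2 fold change 1.87 ± 0.34, edgeR adjusted p = 0.0334), at 3.20 to 6.93 CPM in Blimp1-flox libraries and 0.922 to 2.22 CPM in WT libraries. Pou2af1, a coactivator of B lineage cells, was higher without overlap (0.55 ± 0.20, edgeR adjusted p = 0.225), at 135 to 166 CPM in Blimp1-flox libraries and 60.1 to 130.4 CPM in WT libraries. Other plasma cell markers went the other way: Irf4, Eaf2, Slamf7 and Cd38 had log2 fold changes of -0.22, -0.15, -0.15 and -0.063. Tnfrsf13b was at 0.27, and all of these had overlapping groups. Pancreas acinar markers summed to 52.7 to 113 CPM in Blimp1-flox libraries and 34.2 to 75.7 CPM in WT libraries. Myeloid and dendritic markers summed to 27.3 to 114 CPM in Blimp1-flox libraries and 33.7 to 52.3 CPM in WT libraries. In these lists Prss2, Cela1 and Cd68 were higher without overlap (log2 fold changes 2.08, 0.63 and 0.65). None was called by edgeR, and the other genes overlapped. The part of plasma, acinar and myeloid cell RNA in the member values was not tested. In bulk RNA, fewer cells of a type and less RNA per cell cannot be told apart.

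Compared per length, in TPM over all 8 libraries, folding genes of the ER lumen led the order. The regulators were spread along it, from Atf4 down to Ern1. Hspa5, which encodes the chaperone BiP, led at 1863 ± 314 TPM (SD, n = 8). The isomerase Pdia3 followed at 931 ± 70.0 TPM and the lectin chaperone Calr at 869.9 ± 90.9 TPM, and those 2 neighbours did not differ beyond their spread. These 3 genes held 42.9% of the summed TPM of the 37 members. Sec11c, a signal peptidase subunit, was next at 723 ± 56.8 TPM. P4hb at 358 ± 35.2 TPM, Atf4 at 349 ± 50.9 TPM and Hsp90b1 at 333 ± 87.2 TPM formed a run of neighbours within their spread. At the foot of the order were Trib3 at 3.59 TPM, Ern1 at 2.36 ± 0.594 TPM, Fkbp11 at 1.53 TPM and Chac1 at 0.398 TPM. In all, 21 members exceeded 100 TPM and 7 lay below 10 TPM, and 13 of the 36 steps between neighbours in the order were larger than the larger SD of the pair. Xbp1 stood at 239 ± 30.8 TPM, whereas Derl3, Mzb1 and Fkbp11, which are abundant in plasma cells, were at 6.17, 5.56 and 1.53 TPM.

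**Figure D1:**
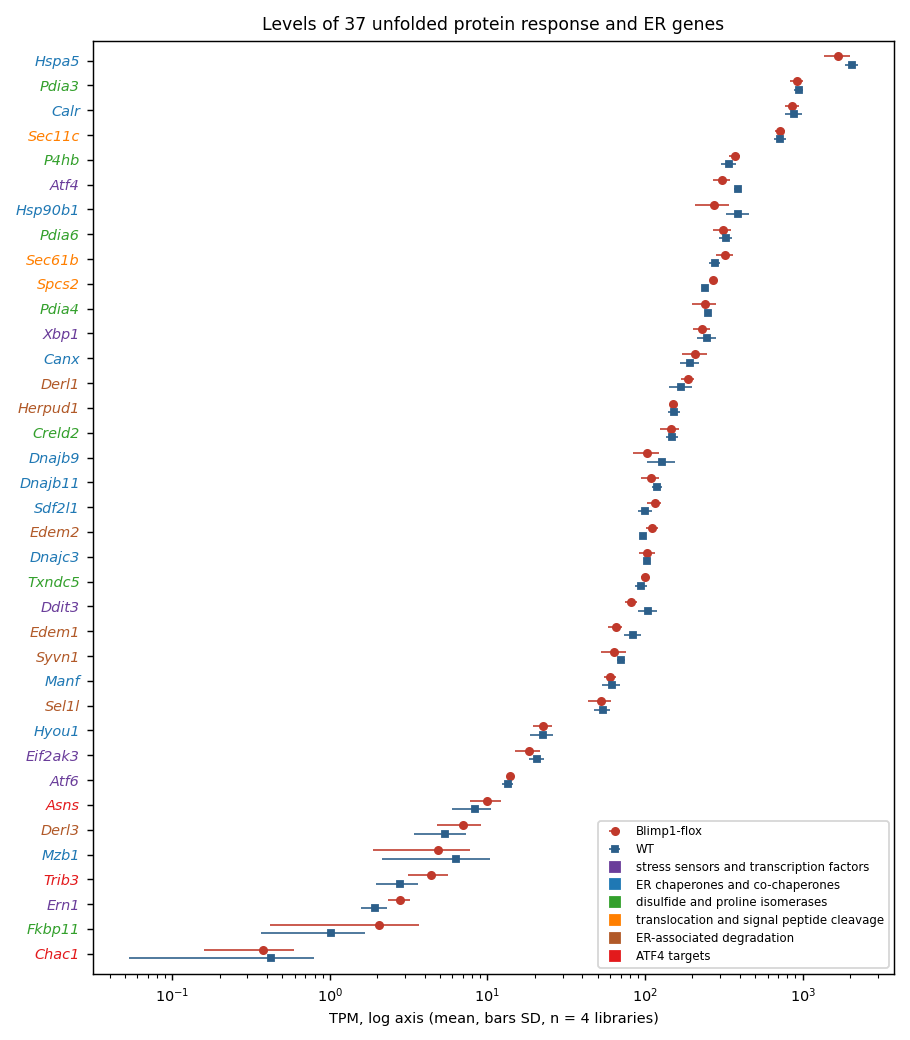
Mean level of each of the 37 members in TPM on a log axis, for Blimp1-flox and WT libraries, with bars showing the SD. Members are ordered by their mean over all libraries, and the colour of the label gives the role. Hspa5 stood highest and Chac1 lowest, and the means of both groups lay close together for most members.

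Some members also share short promoter sequences through which the response reaches its targets. The members were chosen by name as genes of this response or targets of ATF4. The shares below are therefore not independent of that choice. The ER stress response element (ERSE) has the letters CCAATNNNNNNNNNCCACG, where CCAAT binds the factor NF-Y and CCACG binds ATF6 or XBP1s. Both strands were searched in windows of 250 bases before to 50 bases after each RefSeq gene start (GRCm38.p6, the assembly of mm10). Of the 37 members, 31 matched the promoter table, with 34 promoters, out of 32851 promoters in all. Those without an entry were Atf6, Derl1, Hyou1, Manf, Mzb1 and Sec11c. ERSE was found in 9 of the 34 member promoters (26.5%) and in 0.119% of all promoters. Those 9 members were Hspa5, Hsp90b1, Calr, Canx, Pdia6, Dnajc3, Creld2, Syvn1 and Derl3. The related element ERSE-II, ATTGGNCCACG, was found in the promoters of Herpud1 and Dnajb11, 5.88% of member promoters against 0.0365% of all promoters.

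The 250 bases before the starts of Hspa5 and Hsp90b1 are shown because these genes carry the element, encode the main ER members of the HSP70 and HSP90 families and had the chaperone values described below. Capitals mark ERSE, 1 copy in Hspa5 at bases -65 to -47 from the start and 2 copies in Hsp90b1, the one nearer the start lying on the opposite strand. They are at chr2:34771840-34772089 on the plus strand and chr10:86705445-86705694 on the minus strand, each written 5′ to 3′ along its gene.
Hspa5: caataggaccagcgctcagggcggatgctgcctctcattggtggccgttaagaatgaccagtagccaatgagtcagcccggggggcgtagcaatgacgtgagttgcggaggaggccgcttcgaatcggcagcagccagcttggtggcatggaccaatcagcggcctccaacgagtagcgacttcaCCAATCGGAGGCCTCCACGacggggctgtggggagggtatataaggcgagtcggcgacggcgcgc
Hsp90b1: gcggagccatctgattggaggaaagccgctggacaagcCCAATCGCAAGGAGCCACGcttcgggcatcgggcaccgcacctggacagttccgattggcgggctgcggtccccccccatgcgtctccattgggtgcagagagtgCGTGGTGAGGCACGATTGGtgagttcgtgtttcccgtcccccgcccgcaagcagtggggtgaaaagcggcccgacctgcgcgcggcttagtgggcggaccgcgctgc

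ERSE in the other 7 members is shown with 10 bases on either side, to compare the fixed letters with the spacer between them. Capitals mark the element, which reads on the opposite strand in Calr, Creld2 and Derl3. The windows are chr8:84847065-84847103 (minus strand) for Calr, chr11:50325790-50325828 (minus) for Canx, chr12:17266481-17266519 (plus) for Pdia6, chr14:118937817-118937855 (plus) for Dnajc3, chr15:88819510-88819548 (plus) for Creld2, chr19:6046522-6046560 (plus) for Syvn1, chr10:75893232-75893270 (plus) for Derl3 and, for ERSE-II of Herpud1, chr8:94386367-94386397 (plus).
Calr: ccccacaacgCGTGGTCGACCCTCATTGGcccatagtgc
Canx: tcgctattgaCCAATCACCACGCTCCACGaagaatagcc
Pdia6: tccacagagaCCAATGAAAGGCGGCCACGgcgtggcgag
Dnajc3: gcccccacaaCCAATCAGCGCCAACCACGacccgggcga
Creld2: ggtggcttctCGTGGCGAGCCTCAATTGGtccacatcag
Syvn1: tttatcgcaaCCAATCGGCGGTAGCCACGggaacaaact
Derl3: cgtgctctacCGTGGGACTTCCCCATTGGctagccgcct
Herpud1: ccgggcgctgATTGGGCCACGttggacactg

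The CARE element TGATGNAA, bound by ATF4 with C/EBP partners, was found in 5 member promoters (14.7%, against 3.97% of all promoters): Asns, Chac1, Trib3, Herpud1 and Txndc5. The sites of the 3 ATF4 targets are shown in capitals with 10 bases on either side, at chr6:7693215-7693242 (minus strand), chr2:119351039-119351066 (plus) and chr2:152344029-152344056 (minus). Those of Chac1 and Trib3 read on the opposite strand.
Asns: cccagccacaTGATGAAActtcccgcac
Chac1: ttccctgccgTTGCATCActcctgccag
Trib3: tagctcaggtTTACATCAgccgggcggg

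A core of the UPR element, TGACGTGG, was found in a promoter of Txndc5 (2.94% of member promoters, against 0.676% of all). The letters AGNGAAAG, a core of the sites Blimp1 binds, were found in 3 member promoters, those of Sec61b, Syvn1 and Txndc5 (8.82%, against 8.63% of all). Txndc5 has several entries in the promoter table, and its CARE, UPR element and Blimp1 matches each lay in a different one. No matches of different motifs overlapped. These matches describe letters in a window and not bound sites.

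**Figure D2:**
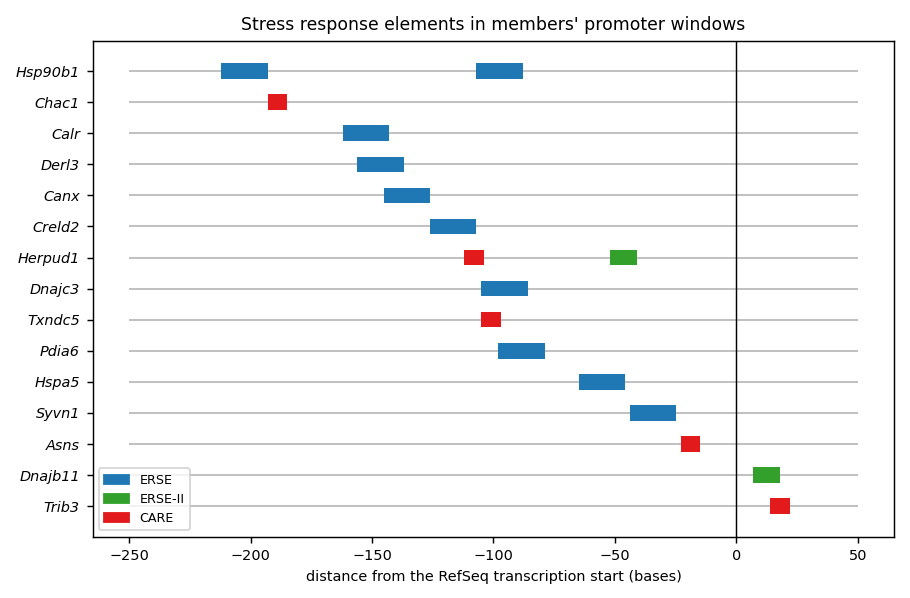
Position of each ERSE, ERSE-II and CARE match in the member promoters, as distance in bases from the gene start, with 1 row per gene and 1 colour per motif. The ERSE matches lie between 212 and 26 bases before the start.

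None of the 36 members tested was called as changed in Blimp1-flox cells by the edgeR test. Hspa5, Hsp90b1, Atf4, Ddit3 and Edem1 were the 5 members with lower values at an unadjusted p under 0.05, and Ern1, Trib3, Spcs2 and Edem2 the 4 with higher values. At an adjusted p under 0.05 the edgeR quasi-likelihood test called 0 of 36 members, against 62 of all 12363 genes tested (0.501%), of which 32 were higher (0.259%) and 30 lower (0.243%). The 9 members at an unadjusted p under 0.05 compare with 1998 of all tested genes (16.2%). By direction, the background was 7.11% for higher and 9.05% for lower genes. DESeq2 called 1 member, Edem1, lower (log2 fold change -0.33, adjusted p = 0.0475), where it called 2.10% of all genes lower. Limma-voom with quality weights called 1 member, Atf4, lower (-0.34, adjusted p = 0.0329), where it called 2.27% of all genes lower. At an unadjusted p under 0.05, DESeq2 gave 9 members, where 17.2% of all genes passed, and limma-voom gave 13, where 23.8% of all genes passed. Chac1 had too few counts to be tested.

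The member fold changes were balanced and small. Log2 fold changes, Blimp1-flox over WT, were positive for 18 members and negative for 18, with a median of 0.0060 against 0.0012 over all tested genes. Their median size was 0.15, against 0.17 over all genes, and their median standard error (SE) was 0.12. In 34 of 36 members the estimate lay within 1.5-fold, Fkbp11 and Trib3 being outside. The 95% interval of the fold change lay wholly within 1.5-fold for 27 members, and reached beyond it for Ern1, Ddit3, Hsp90b1, Dnajb9, Mzb1, Fkbp11, Derl3, Trib3 and Asns. Groups did not overlap for 2 members, Ern1 higher and Edem1 lower, where 3.75% of all tested genes were higher without overlap and 4.72% were lower. Members with an ERSE, 9 in number, had 3 positive and 6 negative fold changes and a median of -0.0056. Another 28 genes have an ERSE in their promoters, of which 8 were tested, 2 positive and 6 negative, with a median of -0.11. By edgeR 0 of either set was called, with 2 and 1 at an unadjusted p under 0.05. DESeq2 called 0 in both, and limma-voom called 0 members and 1 other gene.

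**Figure D3:**
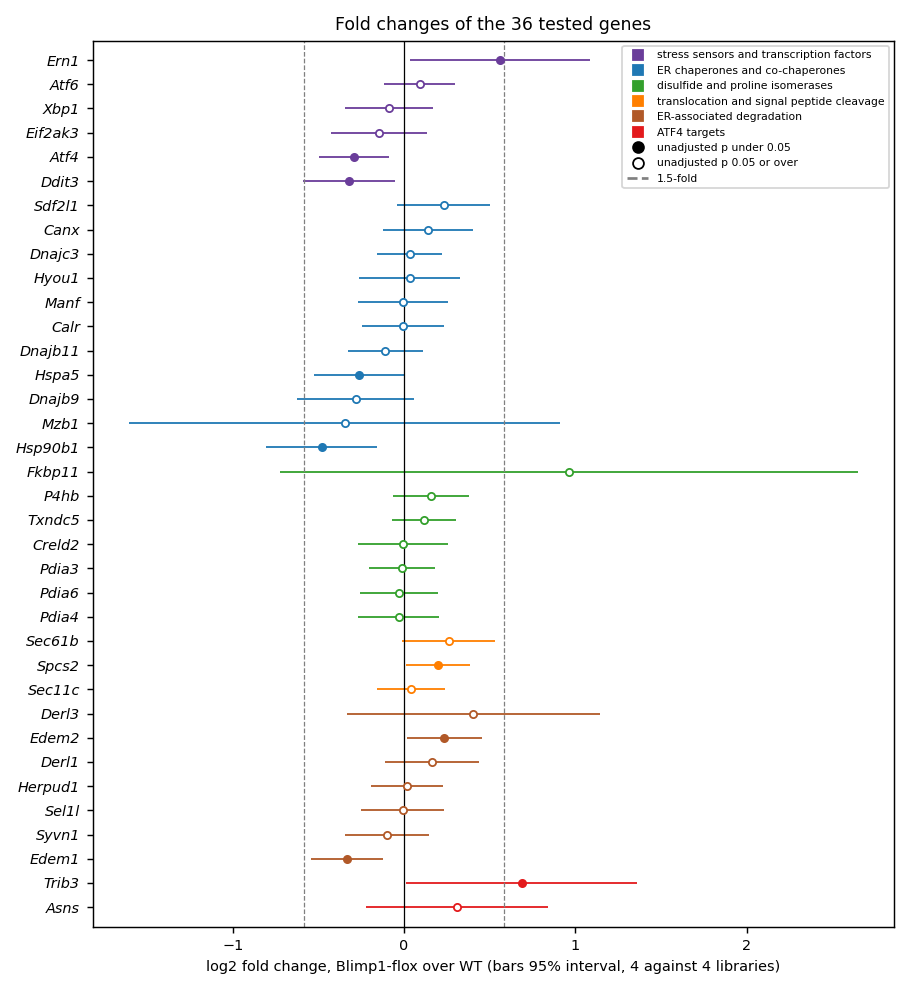
Log2 fold change of each tested member, Blimp1-flox over WT, with its 95% interval, members grouped by role. Estimates fall on both sides of 0 and the intervals of Fkbp11 and Mzb1 are the widest.

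Among the sensors and transcription factors, the 3 transcripts of the PERK branch had negative fold changes and that of IRE1 a positive one, none past the adjusted edgeR threshold, while limma-voom called Atf4 lower as given above. Of 6 members, 2 had positive and 4 negative fold changes (median -0.12). Atf4 (chr15:80255184-80257545, plus strand), the effector of PERK and of the other eIF2 alpha kinases, had 223, 234, 273 and 217 CPM in Blimp1-flox libraries, against 307, 297, 272 and 286 CPM in WT libraries. The groups overlapped only at Blimp1-flox replicate 3 and WT replicate 3, which were nearly equal. Its means were 237 ± 25.4 CPM in Blimp1-flox and 290.5 ± 15.0 CPM in WT libraries (SD, n = 4 each), a log2 fold change of -0.29 ± 0.09 (SE; unadjusted p = 0.00812, adjusted p = 0.179 by edgeR quasi-likelihood).

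Ddit3 (chr10:127290793-127296288, plus strand), which encodes CHOP and is itself an ATF4 target, had 31.02, 30.5, 35.0 and 29.6 CPM in Blimp1-flox libraries, against 40.5, 34.6, 35.2 and 47.2 CPM in WT libraries. Blimp1-flox replicate 3 lay between the lowest pair of WT libraries, and the other Blimp1-flox libraries lay below all WT libraries. Its log2 fold change was -0.32 ± 0.12 (edgeR unadjusted p = 0.0229, adjusted p = 0.244). By the exon positions deposited with the counts, an exon of Ddit3 overlaps Mars on the other strand. The strand setting of the counting is not given, so part of the counts of Ddit3 is uncertain. Without WT replicate 4, the highest library for Ddit3, the fold change was -0.22 and the unadjusted edgeR p was 0.0836. Eif2ak3, which encodes PERK, had 27.8, 39.8, 38.1 and 39.6 CPM in Blimp1-flox libraries and 40.1, 44.2, 41.2 and 35.6 CPM in WT libraries. Blimp1-flox replicate 1 stood below the rest and the other libraries of both groups overlapped (log2 fold change -0.15 ± 0.13, edgeR adjusted p = 0.609).

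Ern1 (chr11:106397620-106487796, minus strand), which encodes IRE1 alpha, was the lowest of the sensors in level. It had 4.20, 4.32, 5.54 and 5.58 CPM in Blimp1-flox libraries, against 4.08, 3.41, 3.38 and 2.46 CPM in WT libraries. All Blimp1-flox libraries lay above all WT libraries, with WT replicate 1 close to the lowest Blimp1-flox library. The means were 4.91 ± 0.752 CPM in Blimp1-flox and 3.33 ± 0.663 CPM in WT libraries, a log2 fold change of 0.56 ± 0.24 (edgeR unadjusted p = 0.0384, adjusted p = 0.282). Atf6 lay at 44.1 to 49.2 CPM in Blimp1-flox and at 40.3 to 46.4 CPM in WT libraries, with overlap (0.091 ± 0.09, edgeR adjusted p = 0.669).

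Xbp1 (chr11:5520641-5525993, plus strand), the mRNA that IRE1 splices, had 207, 254, 209 and 240.5 CPM in Blimp1-flox libraries, against 296, 234, 233 and 204 CPM in WT libraries. The Blimp1-flox values lay within the wider WT range, and WT libraries held the highest and the lowest value. The log2 fold change of -0.087 ± 0.12 had a 95% interval of -0.34 to 0.17 (edgeR adjusted p = 0.748). The intron removed by IRE1 lies in coding exon 4 of 5, between cuts in a pair of CNGCAG sites. It is shown at chr11:5524255-5524328 in mm10, from the GENCODE M21 transcript, with the 26 excised bases in capitals.
Xbp1: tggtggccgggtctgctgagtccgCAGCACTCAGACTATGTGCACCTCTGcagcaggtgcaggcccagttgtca
Counts per gene do not separate the spliced from the unspliced mRNA, so the values of Xbp1 say nothing of how much XBP1s was made.

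Among the chaperones, Hspa5 and Hsp90b1, of the HSP70 and HSP90 families, had negative fold changes at an unadjusted edgeR p under 0.05, with overlapping groups and no call by edgeR, DESeq2 or limma-voom. Of 11 members, 4 had positive and 7 negative fold changes (median -0.0056). Hspa5 (chr2:34772090-34776529, plus strand), the BiP gene whose promoter is printed above, had 1575, 2308, 1860.4 and 1992 CPM in Blimp1-flox libraries, against 2619.5, 2386, 2253 and 2033 CPM in WT libraries. Blimp1-flox replicate 2 lay within the WT range and the others below it. The means were 1934 ± 304 CPM in Blimp1-flox and 2323 ± 246 CPM in WT libraries, a log2 fold change of -0.26 ± 0.12 (edgeR unadjusted p = 0.0483, adjusted p = 0.305).

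Hsp90b1 (chr10:86690841-86705444, minus strand), which encodes GRP94, had the log2 fold change of largest size among the 21 members above 100 TPM. It stood at 262, 432, 307 and 335 CPM in Blimp1-flox libraries, against 396, 457, 446 and 565 CPM in WT libraries. Blimp1-flox replicate 2 exceeded WT replicate 1, and the other Blimp1-flox libraries lay below all WT libraries. The means were 334 ± 72.1 CPM in Blimp1-flox and 466 ± 70.8 CPM in WT libraries, a log2 fold change of -0.48 ± 0.15 (edgeR unadjusted p = 0.00726, adjusted p = 0.175). WT replicate 4, with the most B cell marker RNA, was its highest library. Without that library the fold change was -0.37 (edgeR unadjusted p = 0.0224), and the part of B cell RNA in its value was not tested further.

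Dnajb9, a BiP co-chaperone and a textbook target of XBP1s, had 71.0, 92.6, 101 and 76.3 CPM in Blimp1-flox libraries and 124, 114, 102 and 74.9 CPM in WT libraries. WT replicate 4 was as low as the lowest Blimp1-flox libraries, and the other WT libraries lay above all Blimp1-flox libraries (-0.28 ± 0.16, edgeR unadjusted p = 0.0962, adjusted p = 0.397). Sdf2l1, another partner of BiP, went the other way, with 65.9, 52.2, 49.2 and 59.3 CPM in Blimp1-flox and 56.4, 40.2, 48.3 and 48.0 CPM in WT libraries, the groups overlapping at WT replicate 1 (0.23 ± 0.13, edgeR adjusted p = 0.390). The lectin chaperones had overlapping groups: Calr stood at 652 to 802 CPM in Blimp1-flox and 621 to 830.0 CPM in WT libraries, and Canx at 325 to 462 CPM in Blimp1-flox and 306 to 402 CPM in WT libraries (edgeR adjusted p = 0.984 and 0.594). Dnajb11 lay at 131 to 168 CPM in Blimp1-flox and 147 to 178 CPM in WT libraries.

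Dnajc3, which encodes a PERK inhibitor, lay at 215 to 264 CPM in Blimp1-flox and 226 to 237 CPM in WT libraries. The nucleotide exchange factor Hyou1 lay at 39.2 to 50.9 CPM in Blimp1-flox and 35.7 to 52.2 CPM in WT libraries, and the secreted stress factor Manf at 53.8 to 63.9 CPM in Blimp1-flox and 47.8 to 69.0 CPM in WT libraries. The log2 fold changes of those last 4 were between -0.11 and 0.034, with adjusted edgeR p-values from 0.620 to 0.985. Mzb1, a chaperone for immunoglobulin in B and plasma cells, varied most between libraries among the chaperones, relative to its level. It had 2.55, 1.66, 0.396 and 3.20 CPM in Blimp1-flox libraries, against 1.05, 1.81, 2.19 and 4.78 CPM in WT libraries (-0.35 ± 0.58, edgeR adjusted p = 0.803). The lowest was Blimp1-flox replicate 3, where Jchain was also lowest, and the highest was WT replicate 4, where B cell markers were highest. Without WT replicate 4 its fold change was 0.20, and the part of B and plasma cell RNA in its values was not tested.

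The isomerases, which form and rearrange disulfide bonds or turn proline bonds, did not separate the groups. Of 7 members, 3 had positive and 4 negative fold changes (median -0.0043), and 0 had an unadjusted edgeR p under 0.05. Pdia3, which acts with calreticulin and calnexin, had 988, 1155, 1045 and 1098 CPM in Blimp1-flox libraries, against 1123, 1013, 1167 and 1017 CPM in WT libraries. The groups interleaved, with means of 1072 ± 71.3 CPM in Blimp1-flox and 1079.8 ± 77.2 CPM in WT libraries. Its log2 fold change of -0.011 ± 0.09 had a 95% interval of -0.20 to 0.18. Pdia4 had 227, 304, 229 and 292 CPM in Blimp1-flox and 266, 252, 278 and 278 CPM in WT libraries, the Blimp1-flox libraries lying on both sides of the WT range.

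Pdia6 stood at 266 to 330.0 CPM in Blimp1-flox and 263 to 333 CPM in WT libraries. P4hb, the classical protein disulfide isomerase, lay at 389.7 to 439 CPM in Blimp1-flox and 324 to 431 CPM in WT libraries (0.16 ± 0.10, edgeR adjusted p = 0.465). Txndc5 lay at 135 to 149 CPM in Blimp1-flox and 121 to 142 CPM in WT libraries (0.12 ± 0.09), and Creld2 at 76.5 to 107 CPM in Blimp1-flox and 75.6 to 96.0 CPM in WT libraries (-0.0043 ± 0.12). All of these groups overlapped. Exons of Pdia6 overlap Atp6v1c2 on the other strand, and the miRNA gene Mir704 lies within an exon of Pdia4. Fkbp11, a proline isomerase of secretory cells, had 18, 27, 1 and 10 counts in Blimp1-flox libraries, against 15, 4, 3 and 11 counts in WT libraries. With so few counts its log2 fold change of 0.96 ± 0.78 had a 95% interval of -0.72 to 2.65 (edgeR adjusted p = 0.565), so a difference was not detectable at this depth.

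The 3 genes of translocation and signal peptide cleavage all had positive fold changes (median 0.20), and their summed level was 605 to 709 CPM in Blimp1-flox and 581 to 619 CPM in WT libraries. Spcs2 (chr7:99837569-99858883, minus strand), a signal peptidase subunit, had 371, 308, 336 and 331 CPM in Blimp1-flox libraries, against 309, 284, 302 and 282 CPM in WT libraries. Only Blimp1-flox replicate 2 lay within the WT range. The log2 fold change was 0.20 ± 0.09 (edgeR unadjusted p = 0.0418, adjusted p = 0.290). Sec61b, the beta subunit of the translocation channel, had 93.9, 69.9, 68.6 and 85.5 CPM in Blimp1-flox libraries, against 75.9, 56.8, 67.5 and 64.8 CPM in WT libraries. It overlapped between groups at WT replicate 1 (0.26 ± 0.13, edgeR unadjusted p = 0.0585, adjusted p = 0.327). Sec11c, a catalytic subunit of the signal peptidase and the most abundant of the 3 per length, had 244, 226, 269 and 248 CPM in Blimp1-flox libraries, against 234, 240.4, 219.5 and 267 CPM in WT libraries, interleaved (0.039 ± 0.09).

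Gene length moved with the direction of change over the whole table. The 980 tested genes of up to 1000 exonic bases, which include Sec61b and Sec11c, had a median log2 fold change of 0.11, and 69.1% were positive. The 3586 genes over 4000 bases had a median of -0.081, and 34.7% were positive. Spcs2 falls in the bin from 2000 to 4000 bases, where the median was 0.0054, while Edem1 is in the longest. The 7 members over 4000 bases had a median of 0.032. The part of length in the member values was not tested.

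In ER-associated degradation, the closely related lectin genes Edem1 and Edem2 went opposite ways. Both encode proteins that trim mannose from misfolded glycoproteins and hand them to the degradation machinery. Edem1 (chr6:108828641-108859356, plus strand) had 156, 167, 187 and 164 CPM in Blimp1-flox libraries, against 198, 223, 192 and 237 CPM in WT libraries. All Blimp1-flox libraries lay below all WT libraries, Blimp1-flox replicate 3 being within a few CPM of WT replicate 3. The means were 169 ± 13.1 CPM in Blimp1-flox and 212 ± 21.5 CPM in WT libraries, a log2 fold change of -0.33 ± 0.10 (edgeR unadjusted p = 0.00462, adjusted p = 0.151, the lowest among members). Its highest library was WT replicate 4, and without that library the fold change was -0.28 (edgeR unadjusted p = 0.0146).

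Edem2 (chr2:155701673-155729475, minus strand) had 131, 112, 98.4 and 112 CPM in Blimp1-flox libraries, against 105, 91.9, 95.8 and 92.1 CPM in WT libraries. Only WT replicate 1 reached into the Blimp1-flox range. The log2 fold change was 0.23 ± 0.10 (edgeR unadjusted p = 0.0382, adjusted p = 0.282). No test compared Edem1 with Edem2.

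The rest of the degradation genes did not separate the groups. Derl1, a channel protein and the most abundant per length, had 248, 268, 237 and 286 CPM in Blimp1-flox libraries, against 275, 219, 255 and 178 CPM in WT libraries. WT replicate 4 was the lowest library and the others overlapped (0.16 ± 0.13, edgeR adjusted p = 0.547). Derl3, its relative of secretory cells, had 5.72, 3.83, 2.41 and 4.69 CPM in Blimp1-flox libraries, against 4.80, 1.86, 3.07 and 2.76 CPM in WT libraries, also with overlap. Its log2 fold change of 0.41 ± 0.34 was the largest of this group in size, with an adjusted edgeR p of 0.583. The E3 ligase Syvn1 lay at 88.8 to 124 CPM in Blimp1-flox and 103 to 123 CPM in WT libraries, and exons of Syvn1 overlap Mrpl49 on the other strand. Its partner Sel1l lay at 116 to 162 CPM in Blimp1-flox and 129 to 158 CPM in WT libraries. Herpud1, which organises the ligase complex, lay at 119.6 to 135 CPM in Blimp1-flox and 114 to 145 CPM in WT libraries.

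The ATF4 targets had low counts, and both that were tested had positive fold changes, while Atf4 and Ddit3 had negative ones. Trib3 (chr2:152337425-152344060, minus strand), a pseudokinase induced by ATF4 and CHOP, had 2.68, 4.20, 5.21 and 3.79 CPM in Blimp1-flox libraries, against 3.27, 2.68, 2.502 and 1.46 CPM in WT libraries. Blimp1-flox replicate 1 lay within the WT range, level with WT replicate 2, and the others lay above it. The log2 fold change was 0.69 ± 0.31 (edgeR unadjusted p = 0.0460, adjusted p = 0.298). Asns, asparagine synthetase, had 10.3, 8.27, 5.72 and 9.93 CPM in Blimp1-flox libraries, against 7.79, 8.99, 4.92 and 5.86 CPM in WT libraries, with overlap (0.31 ± 0.25, edgeR adjusted p = 0.561). Chac1, which breaks down glutathione, had 5, 1, 9 and 9 counts in Blimp1-flox libraries, against 4, 4, 15 and 4 counts in WT libraries, and was not tested.

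**Figure D4:**
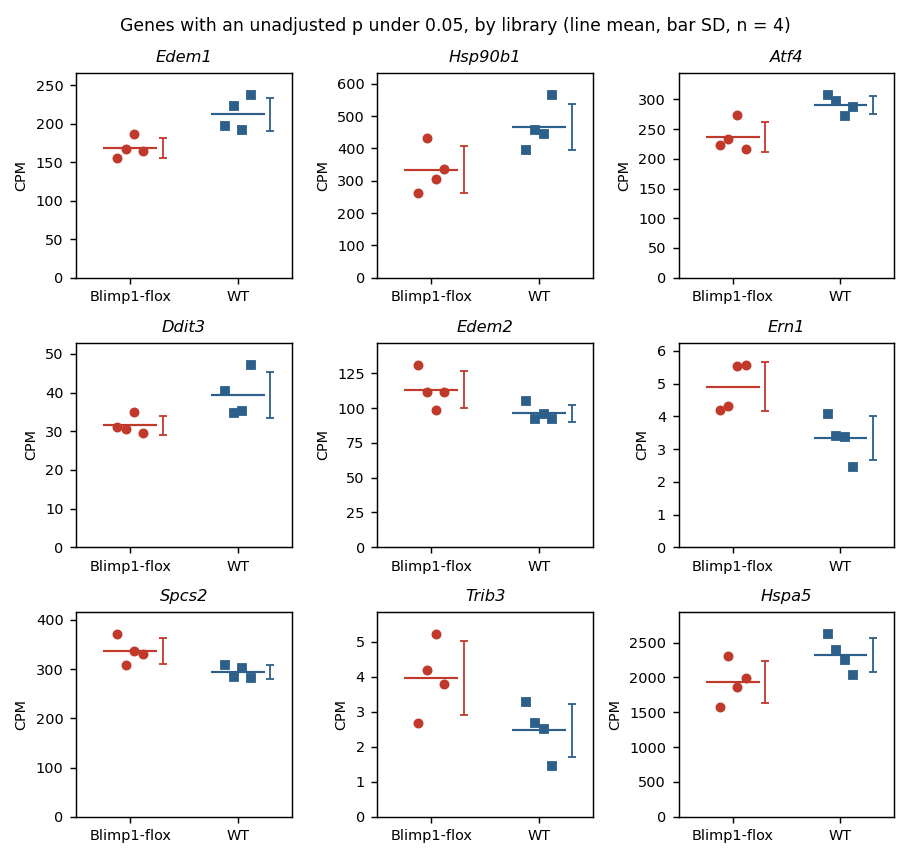
CPM in each library of the 9 members with an unadjusted edgeR p under 0.05, with Blimp1-flox left of WT, the line at the mean and the bar 1 SD (n = 4 libraries). Ern1 and Edem1 are the 2 without overlap between groups.

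Leaving out 1 library at a time did not bring any member past the adjusted edgeR threshold in the 8 fits. The unadjusted p stayed under 0.05 in all 8 fits for Atf4, Hsp90b1 and Edem1, in 5 for Ddit3, in 3 for Ern1 and in 2 each for Hspa5, Trib3, Spcs2 and Edem2. With WT replicate 4 and Blimp1-flox replicate 3 both left out, an alternative chosen after seeing the data, 0 members and 1.27% of all genes were called by edgeR. The log2 fold changes of Atf4 and Edem1 were then -0.38 and -0.33, with unadjusted edgeR p-values of 0.00186 and 0.00592, and that of Hsp90b1 was -0.34 with an unadjusted p of 0.0510. In that fit edgeR gave Trib3 a fold change of 0.34 and an unadjusted p of 0.258, and Ern1 a fold change of 0.38 and an unadjusted p of 0.156.

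Summed over all 37, the members differed between groups by less than the SD of either group. The summed level of all 37 members was 7738 to 9305 CPM in Blimp1-flox libraries and 8364 to 9583 CPM in WT libraries, with means of 8497 ± 669 CPM in Blimp1-flox and 8981 ± 512 CPM in WT libraries. The sensors and transcription factors summed to 542 to 607 CPM in Blimp1-flox and 619 to 728 CPM in WT libraries, ranges that did not overlap and to which Atf4 and Xbp1 gave the most. Chaperone sums were 3472 to 4667 CPM in Blimp1-flox and 4153 to 4880 CPM in WT libraries and overlapped.

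The median deviation of the 36 tested members from their mean over all libraries, on the log2 scale with a pseudocount of 0.5, was -0.10, 0.10, -0.040 and 0.053 in Blimp1-flox libraries, against 0.075, -0.065, 0.020 and -0.10 in WT libraries. Each group thus had 2 libraries above and 2 below the members' means. Blimp1-flox replicate 1 was the lowest library for 11 members and the highest for 8, and WT replicate 4 was the lowest for 11 and the highest for 5, while Blimp1-flox replicate 2 was the lowest for none and WT replicate 2 the highest for 1. Blimp1-flox replicate 1 also had the fewest counts in total.

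**Figure D5:**
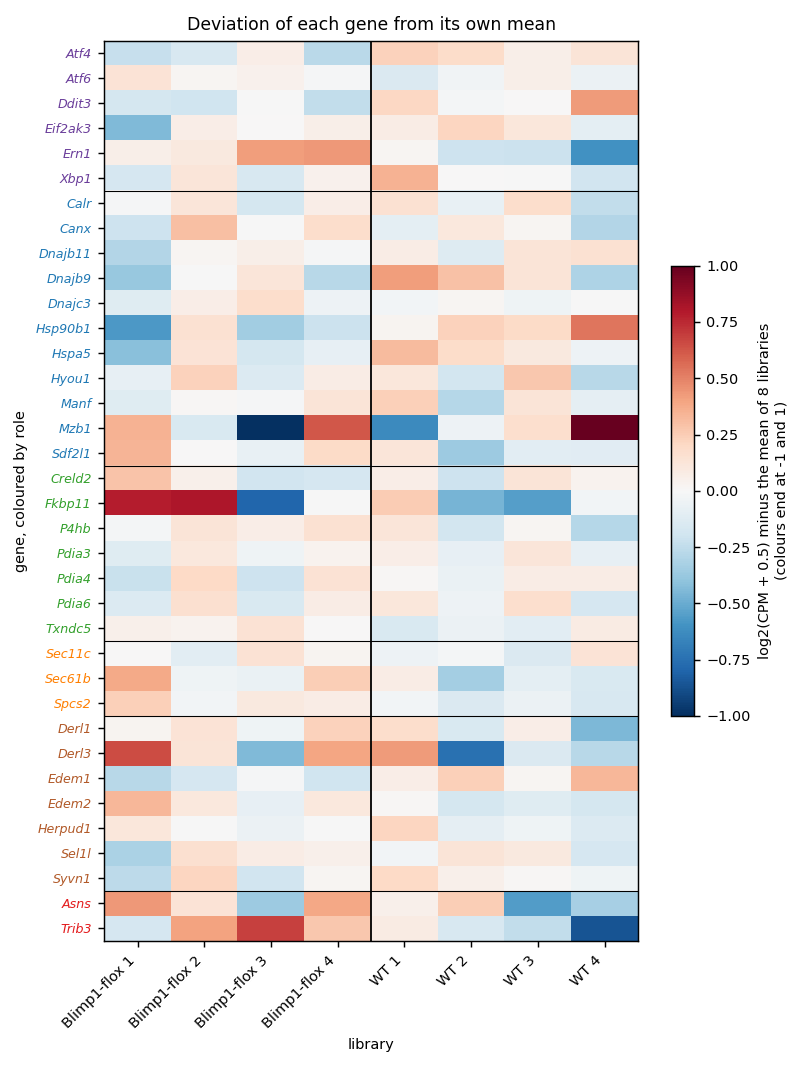
Deviation of each tested member from its own mean over all 8 libraries (log2 CPM with a pseudocount of 0.5), by library and role, with Blimp1-flox libraries left of WT libraries. Libraries of both groups lie above and below 0, with Blimp1-flox replicate 1 and WT replicate 4 the lowest by their medians.

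The wider ER and integrated stress response genes, 154 genes in 7 lists that hold no member, leaned to the positive side without any edgeR call. Of these, 149 had a row and 144 were tested, with 0 called, 93 positive and 51 negative fold changes. That is 64.6% positive, against 50.1% of all tested genes, with a median of 0.051 against 0.0012. By length, 69.1% of all tested genes up to 1000 bases and 34.7% of those over 4000 bases were positive. The part of gene length in the values of the wider lists was not tested. These lists were also chosen with earlier results of these data known. Unadjusted edgeR p-values were under 0.05 for 19 of the 144 with higher values (13.2%, against 7.11% of all genes) and for 5 with lower values (3.47%, against 9.05%). Without overlap between groups, 11 were higher (7.64%, against 3.75%) and 4 lower (2.78%, against 4.72%). DESeq2 and limma-voom each called the same 4 of the 144, Psat1, Ppp1r15a, Slc6a9 and Eif2ak2, with 2 higher and 2 lower. That is 2.78%, against 3.66% of all genes called by DESeq2 and 4.0% by limma-voom. The glycine transporter gene Slc6a9, named after its call was seen, had 8.64, 7.86, 7.84 and 8.48 CPM in Blimp1-flox libraries, against 6.78, 3.33, 4.92 and 2.39 CPM in WT libraries, higher without overlap (0.91 ± 0.28, edgeR adjusted p = 0.171). Eif2ak2, which encodes the eIF2 alpha kinase PKR and was named in the same way, had 26.6, 30.0, 25.97 and 25.2 CPM in Blimp1-flox libraries, against 31.8, 39.7, 35.6 and 48.5 CPM in WT libraries, lower without overlap (-0.53 ± 0.14, edgeR adjusted p = 0.106). Exons of Slc6a9 overlap Ccdc24 on the other strand.

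By list, the translocon, signal recognition and signal peptidase genes had 16 positive and 6 negative fold changes (median 0.069). The oligosaccharyltransferase and lectin cycle genes, which attach and trim N-glycans, had 14 positive and 2 negative (median 0.10). Further ERAD genes had 12 positive and 7 negative (0.050), further chaperones and oxidative folding genes 15 positive and 7 negative (0.071), and COPII coat, cargo receptor and retrieval genes 14 positive and 12 negative (0.024). The ATF4 and integrated stress response genes had 19 positive and 10 negative (0.044), and other stress sensors and bZIP factors 3 positive and 7 negative (-0.041).

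In the translocon list the lowest p-values were those of Ssr2 and Spcs3, with log2 fold changes of 0.28 ± 0.11 and 0.25 ± 0.10 (edgeR adjusted p = 0.236 and 0.237). Spcs3, which forms the signal peptidase with Sec11c and Spcs2, did not overlap between groups. Ddost, a subunit of oligosaccharyltransferase, had 363, 301, 278 and 328 CPM in Blimp1-flox libraries, against 289.5, 233, 275 and 206 CPM in WT libraries, with overlap at WT replicate 1 (0.34 ± 0.12, edgeR adjusted p = 0.210). Ostc of the same complex had a fold change of 0.26 ± 0.11. Among further ERAD genes, Nploc4, a cofactor of the p97 ATPase, and Vimp, which recruits that ATPase to the membrane, were higher without overlap (0.24 ± 0.09 and 0.23 ± 0.09, edgeR adjusted p = 0.207 and 0.249). Prdx4, the peroxiredoxin of the ER, had 35.2, 23.7, 29.8 and 31.1 CPM in Blimp1-flox libraries, against 24.4, 18.9, 23.7 and 21.5 CPM in WT libraries, overlapping at Blimp1-flox replicate 2 (0.44 ± 0.14, edgeR adjusted p = 0.184). The ER cyclophilin Ppib was at 0.31 ± 0.12. Sec13 of the COPII coat and the cargo receptor Surf4 were higher without overlap (0.26 ± 0.09 and 0.27 ± 0.10, edgeR adjusted p = 0.190 and 0.232). Exons of Ppib and Surf4 overlap genes on the other strand. The lowest p-values among other stress sensors were those of Creb3 (0.22 ± 0.11) and Map3k5 (-0.18 ± 0.10), with adjusted edgeR p-values of 0.345 and 0.404.

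The integrated stress response list held the 2 lowest p-values of all the wider genes, in opposite directions. Psat1, a serine synthesis enzyme and ATF4 target, had 159.6, 146, 143 and 186 CPM in Blimp1-flox libraries, against 129.7, 95.4, 119.8 and 95.2 CPM in WT libraries. All Blimp1-flox libraries lay above all WT libraries, with a log2 fold change of 0.53 ± 0.12 (edgeR unadjusted p = 0.00101, adjusted p = 0.0869). DESeq2 and limma-voom gave it adjusted p-values of 0.00609 and 0.0163. Ppp1r15a, which encodes GADD34, the phosphatase subunit that ends the translation block set by PERK, had 1003, 1292, 1185 and 1043 CPM in Blimp1-flox libraries, against 1765, 1711, 1393 and 1352 CPM in WT libraries. All Blimp1-flox libraries lay below all WT libraries (-0.46 ± 0.12, edgeR unadjusted p = 0.00179, adjusted p = 0.103). DESeq2 and limma-voom gave it adjusted p-values of 0.0110 and 0.0208, and exons of Ppp1r15a overlap Tulp2 on the other strand.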

How the data were processed

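The deposited table holds raw read counts per gene, without normalization, for 8 libraries, and each gene's exonic length in bases, which is another kind of value. Per the labels' protocols, RNA was extracted with RNeasy Plus Micro and libraries were made with KAPA mRNA HyperPrep. Per the submitters' processing notes, STAR 2.5.2b mapped the reads to mm10 and Subread 1.5.1 (featureCounts) counted them. Strand setting and gene annotation are not given in the sources used here, and reads in exons shared by overlapping genes may be miscounted.

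Genes were kept with filterByExpr of edgeR 4.0.16 (R 4.3.3), which left 12363, and libraries were scaled by TMM (factors 0.976 to 1.02). The test was edgeR's quasi-likelihood F test with robust estimation and genotype alone, adjusted by Benjamini-Hochberg over all tested genes and called under 0.05. SE was taken from the F statistic. CPM are TMM-scaled, and TPM use the deposited lengths. The steps were tested on simulated data. There edgeR called 38.7% of 150 genes changed 1.5-fold and 68% of 150 changed 2-fold, so many changes of such size were missed. Of the calls, 4.36% were of unchanged genes. Alternatives were DESeq2 1.42.0, limma-voom 3.58.1, other scalings, filters and thresholds, the replicate number as a block and leaving out libraries. No 2 libraries of a group agreed within sampling noise.

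The members and the lists were chosen with earlier results of these data known. Values were named by library for members with an unadjusted p under 0.05, the most abundant and most changed member of each role, members with an outlying library or under 10 counts, and the 2 lowest p-values of each wider list. A few more were named after their values were seen.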

Additional observations from a re-analysis of the deposited data

Results flagged for a closer look

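In 76 groups of 4 libraries (the 37 members and their summed level in each group), 2 had a library far from the other 3 by Dixon's gap, where chance alone gives about 5%. Eif2ak3 was at 27.8 CPM in Blimp1-flox replicate 1, against 38.1 to 39.8 CPM in the other Blimp1-flox libraries. Chac1 was at 0.658 CPM in WT replicate 3, against 0.149 to 0.173 CPM in the other WT libraries, which is 15 counts against 4 in each of them.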

How the results depend on the processing

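No member was called under other scalings, a stricter filter, no filter, a threshold of 0.1, the replicate block or any left-out library. All genes called numbered 453 (193 higher, 260 lower) with DESeq2 and 494 (213 higher, 281 lower) with limma-voom, each with 1 member, which was lower. A threshold of 0.1 gave 182 (81 and 101), no filter gave 46 lower, and leaving out WT replicate 4 and Blimp1-flox replicate 3 together, chosen after seeing the data, gave 157 (91 and 66). Leaving out 1 library gave 20 (without Blimp1-flox replicate 1) to 127 (without WT replicate 1) genes, 13 to 58 higher and 7 to 82 lower. Other counts beyond 1.5 times the main 62 were 94 without Blimp1-flox replicate 3, 23 without Blimp1-flox replicate 4 and 27 without WT replicate 2. The causes were not tested. The replicate block gave 52 genes and 0 members. Replicate numbers were not treated as pairs, since same-numbered libraries deviated together with correlations of 0.1004, 0.153, -0.102 and -0.108, and 2 of 4 Blimp1-flox libraries correlated best with their own number.

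Over 17 alternatives, signs held in every fit of the gene for 23 of 36 members, among them the 9 at an unadjusted p under 0.05. Among the 23, Fkbp11 was fitted in 16 alternatives only, as the stricter filter removed it. Signs changed for 13 members, all with small or noisy log2 fold changes. Upper-quartile scaling gave Manf 0.0023, Calr 0.0032 and Creld2 0.0046. Limma-voom gave Hyou1 -0.017, Manf 0.027, Mzb1 0.15 and Pdia4 0.041. The replicate block gave Manf 0.0060 and Calr 0.00035. Without WT replicate 4 and Blimp1-flox replicate 3, Dnajc3 was -0.020, Mzb1 0.55, Pdia4 0.047, Creld2 0.062 and Herpud1 -0.0032. With single libraries left out, Xbp1 ranged from -0.16 to 0.024, Calr from -0.082 to 0.050, Creld2 from -0.11 to 0.058, Dnajc3 from -0.021 to 0.077, Herpud1 from -0.025 to 0.098, Hyou1 from -0.050 to 0.13, Manf from -0.093 to 0.077, Mzb1 from -0.70 to 0.20, Pdia3 from -0.052 to 0.026, Pdia4 from -0.11 to 0.034, Pdia6 from -0.092 to 0.022, Sec11c from -0.0054 to 0.093 and Sel1l from -0.068 to 0.084. Counts of Chac1, Fkbp11 and Mzb1 limit what depth can show for them.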
